A study of Homo sapiens with 6 samples.

Results

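The platelet-derived growth factor (PDGF) ligands, their receptors, the related receptor KIT and its ligand were followed in WM164, an established human melanoma line with a mutant BRAF kinase. The set held 9 genes of the 18417 measured: PDGFA, PDGFB, PDGFC, PDGFD, PDGFRA, PDGFRB, PDGFRL, KIT and KITLG. They were chosen by name, as a family, and each was read from the brightest probe set, on average, of those that the platform annotation pairs with that 1 symbol. Each of the 9 had only 1 such probe set, so none was left out and no choice between probe sets was made. The family was picked with the difference between the groups already known, so its values are a description: no p-value is given for a member, and how many were past the threshold is stated once, with nothing read from it. Tests are given for other genes of the pathway.

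RNA came from 3 parent samples, labelled as untreated controls and exposed to the solvent DMSO per the series title, and from 3 samples called IDTC colonies, labelled as resistant after 60 days in 500 nM PLX4032. PLX4032, also known as vemurafenib, is a small-molecule inhibitor of mutant BRAF. Both groups carry the same BRAF mutation and were grown in RPMI medium with fetal calf serum. The labels do not say whether the samples of a group were separate cultures or separate colonies, so the spread between them may be technical, and a single cell line was used. Each sample was hybridised to its own 1-colour Affymetrix whole-transcript array.

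The array medians of the deposited log2 values lay between 6.25 and 6.34, and arrays of 1 group correlated at 0.997 to 0.998 across genes, against 0.967 to 0.969 between groups. No pair of arrays held identical values. Melanocyte lineage markers lay above the array medians, with the exception of TYRP1, a pigment enzyme gene with means of 4.69 (parent) and 4.45 (colony). PMEL, a melanosome structural protein, had means of 12.52 and 12.86, and SOX10, a neural crest transcription factor, 10.73 and 11.14. Of 8 measured markers of this lineage, 3 were higher and 3 lower in the colonies by the test used here, limma with a Benjamini-Hochberg adjusted p under 0.05 over all 18417 genes. That test called 43.8% of all genes, 20.9% higher and 22.9% lower in the colonies, and the 3 arrays of each group did not overlap at 50.8% of the genes.

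PDGFs are secreted dimers that act on a pair of receptor tyrosine kinases, PDGFRA and PDGFRB. PDGF-A, PDGF-B and PDGF-C chains engage PDGFRA, while PDGF-B and PDGF-D chains engage PDGFRB. PDGF-C and PDGF-D are released in a latent form and need a protease to free the growth factor domain, whereas PDGF-A and PDGF-B are trimmed inside the cell. KIT belongs to the same receptor class, and with its ligand, stem cell factor (KITLG), it guides the survival and migration of melanocyte precursors.

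The start of the PDGFD gene is shown because PDGFD had by far the widest difference of the family, and that of PDGFRA because it is the signalling receptor of the set whose groups did not overlap. Both are the 250 bases before an annotated start in RefSeq (GRCh38.p14), 5′ to 3′ on the gene's strand. For PDGFD this is chr11:104164148-104164397 on the minus strand, and for PDGFRA, which has 2 annotated starts in the table, it is the window of the upstream start, chr4:54229043-54229292 on the plus strand. Capitals mark matches on either strand to GGGCGG, a motif of SP1-type factors, or to TGANTCA. The latter is a loose form of the AP-1 motif, with any base (N) in the middle.
PDGFD: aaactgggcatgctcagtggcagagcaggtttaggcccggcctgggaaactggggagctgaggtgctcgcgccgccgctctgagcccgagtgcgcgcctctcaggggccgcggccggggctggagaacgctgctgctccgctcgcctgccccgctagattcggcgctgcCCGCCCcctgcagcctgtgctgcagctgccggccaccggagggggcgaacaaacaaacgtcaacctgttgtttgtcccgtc
PDGFRA: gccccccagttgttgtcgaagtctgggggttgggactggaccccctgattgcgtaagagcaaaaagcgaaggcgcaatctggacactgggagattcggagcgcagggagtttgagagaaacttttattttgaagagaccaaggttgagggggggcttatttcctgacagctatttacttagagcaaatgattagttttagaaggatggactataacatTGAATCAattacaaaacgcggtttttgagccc
The PDGFD stretch held 1 GGGCGG match, read here as its reverse complement, and no TGANTCA match. The PDGFRA stretch held 1 TGANTCA match, with A in the middle, and no GGGCGG match. At the other PDGFRA start the window held 2 GGGCGG matches and no TGANTCA match, so the content depends on the start shown.

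Windows from 250 bases before to 50 bases after the start were in hand for 6 of the 9 members, 10 windows in all. At least 1 GGGCGG was present in 9 of these 10 windows, against 45.0% of all 35116 windows of the table, and TGANTCA in 1 of 10, against 7.71%. The windows are not independent, since 4 of the 10 are alternative starts of PDGFA and 2 are those of PDGFRA. The E-box forms CACGTG and CATGTG, letters that MITF can bind, were in none of the 10, against 7.26% and 11.1% of all windows. The members' windows had a median GC content of 70.0%, against 58.7% over all windows. A match is a description of letters, and no match says only that the letters are not in the window.

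PDGFD, the ligand of PDGFRB, stood at 5.04, 5.25 and 5.24 on the log2 scale on parent arrays 1 to 3 and at 9.05, 9.07 and 9.11 on colony arrays 1 to 3. The colony arrays lay close together and far above every parent array, with a gap of 3.80 between the highest parent and the lowest colony value. The group means were 5.18 ± 0.12 and 9.08 ± 0.03 (SD, n = 3 arrays each), a log2 difference of 3.90 ± 0.07 (SE), or 14.9-fold. It ranked 5 among all genes ordered from the most positive difference. The parent mean lay below every array median and whether it was above background was not tested, so the fold is that of the deposited values.

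**Figure D1:**
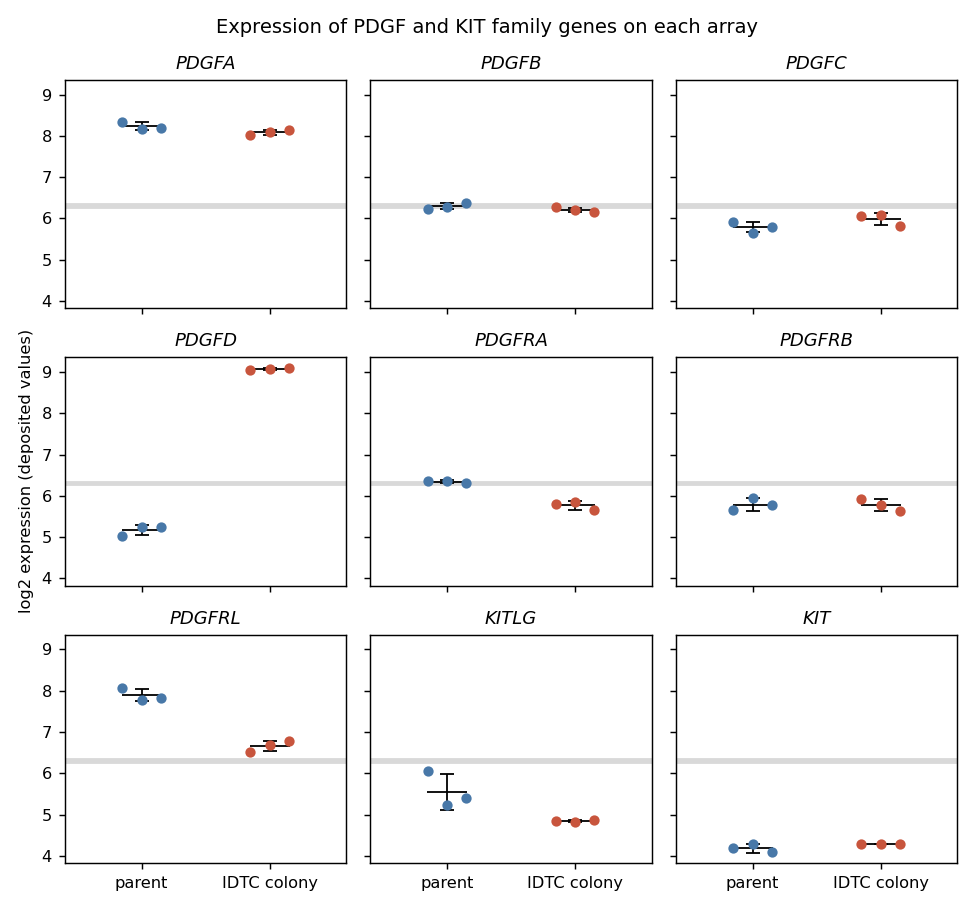
Deposited log2 expression of the 9 genes on each array (vertical axis) in parent samples (blue) and IDTC colonies (red), 3 arrays per group. Points are arrays, black marks and bars are mean ± SD, and the grey band spans the array medians, 6.25 to 6.34. PDGFD moves from below the band to a mean of 9.08, PDGFRL stays above it, and both KIT groups lie far below it, at means of 4.18 and 4.29.

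PDGFA, whose chain forms the classical PDGFRA ligand, was at 8.34, 8.17 and 8.19 on the parent arrays and at 8.02, 8.09 and 8.14 on the colony arrays. The groups did not overlap, but the gap between them was only 0.04. The log2 difference was -0.15 ± 0.06 (SE) or 1.11-fold lower in the colonies. PDGFA was the one ligand of the 4 with both group means above every array median.

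PDGFB, which encodes a chain able to engage both receptors, was at 6.23, 6.28 and 6.38 on the parent arrays and at 6.27, 6.20 and 6.16 on the colony arrays. The groups overlapped and the log2 difference was -0.09 ± 0.06 (SE). PDGFC, whose chain needs proteolytic release, was at 5.92, 5.66 and 5.80 on the parent arrays and at 6.07, 6.08 and 5.81 on the colony arrays. Colony array 3 lay inside the parent range while the other two lay above it. The log2 difference of PDGFC was 0.19 ± 0.09 (SE), and all 6 of its values were below every array median. Of the 4 ligand genes, PDGFD alone had a difference of 2-fold or more.

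PDGFRA, the receptor for the A, B and C chains, was at 6.37, 6.35 and 6.31 on the parent arrays and at 5.80, 5.86 and 5.65 on the colony arrays. Every colony array was below every parent array, with a gap of 0.46. The group means were 6.35 ± 0.03 and 5.77 ± 0.11 (SD, n = 3), a log2 difference of -0.57 ± 0.06 (SE), or 1.49-fold lower in the colonies. The parent mean was just above the array medians and the colony mean below all of them.

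PDGFRB, the receptor that PDGF-D engages, was at 5.65, 5.95 and 5.77 on the parent arrays and at 5.92, 5.77 and 5.64 on the colony arrays. The values of the groups were interleaved, and the log2 difference was -0.01 ± 0.10 (SE). All 6 values lay below every array median. PDGFRL, which encodes a secreted protein related to the extracellular part of PDGF receptors and has no kinase domain, was at 8.05, 7.78 and 7.83 on the parent arrays and at 6.51, 6.69 and 6.77 on the colony arrays. Its groups were separated by 1.01, and both stood above every array median. The group means of PDGFRL were 7.89 ± 0.15 and 6.66 ± 0.13 (SD, n = 3), a log2 difference of -1.23 ± 0.09 (SE), or 2.34-fold lower in the colonies.

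KITLG, the KIT ligand, was at 6.05, 5.22 and 5.39 on the parent arrays and at 4.84, 4.83 and 4.88 on the colony arrays. All colony arrays were below all parent arrays, and parent array 1 stood above the other two parent arrays. The parent SD of 0.44 was therefore much wider than the colony SD of 0.03. The log2 difference was -0.71 ± 0.19 (SE), or 1.63-fold lower in the colonies, and -0.46 without parent array 1. All values were below every array median.

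KIT was at 4.18, 4.29 and 4.08 on the parent arrays and at 4.29 on all 3 colony arrays. The deposited value was exactly the same on the 3 colony arrays and parent array 2, and 571 genes (3.10% of all) had a value repeated on at least 4 arrays in this way. The log2 difference of KIT was 0.11 ± 0.06 (SE). Both group means lay below every array median, and whether the signal was above background was not tested.

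Of the 9 genes, 4 were past the limma threshold, beside 43.8% over all genes: PDGFD on the higher side and PDGFRA, PDGFRL and KITLG on the lower. The groups did not overlap at 5 of 9, these 4 and PDGFA, beside 50.8% of all genes. PDGFD and PDGFRL differed by at least 2-fold, beside 5.41% of all genes that did so and passed the test. The median log2 difference of the 9 was -0.09, and that of all genes 0.00. Since the family was chosen with this contrast known, these counts are no test. The 4 no longer included KITLG when any 1 of the 3 colony arrays was left out, PDGFC was counted only without colony array 3, and PDGFA only when genes above the median expression alone were fitted.

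PDGFRA and KIT are next to each other in the gene order on chromosome 4, so the genes around them were read as well. Their 50 nearest expressed neighbours, 25 on each side with a mean above the median over all genes, were the same for both. These neighbours had a median log2 difference of -0.35, beside -0.03 over all genes above the median expression. Of these 50, 39 lay below 0 and 34 were lower by limma, beside 36.8% of all genes above the median expression. PDGFRA (-0.57) and KIT (0.11) were themselves not above the median expression, so neither is directly comparable with these neighbours. Of the 25 measured genes on each side of the pair, 26 were likewise not above the median expression. These 26 had a median of -0.03, and 5 of them were past the threshold. Whether a change in gene copy number or in the segment as a whole had a part in the PDGFRA value was not tested.

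**Figure D2:**
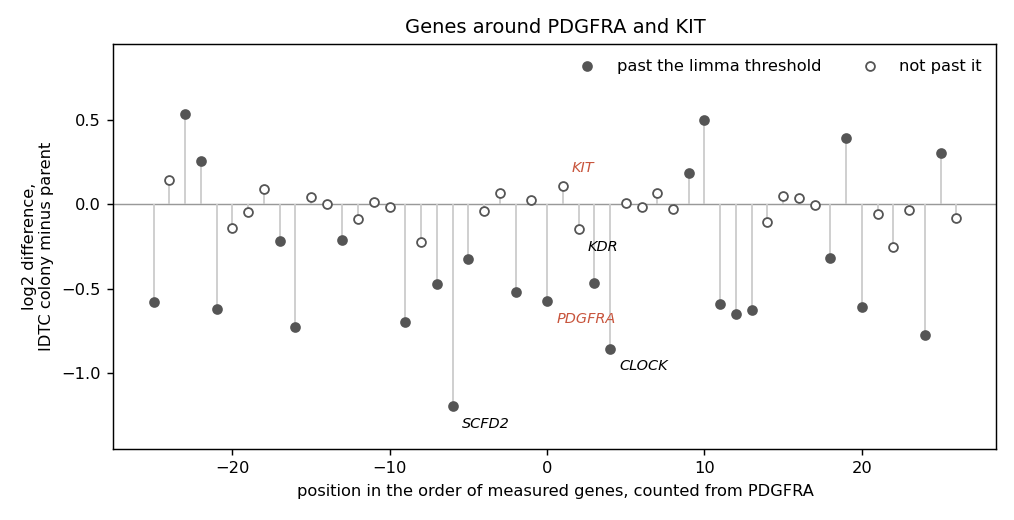
Log2 difference, IDTC colony minus parent (vertical axis), of PDGFRA, KIT and the 25 measured genes on each side of the pair, in gene order (horizontal axis, counted from PDGFRA). Filled points are past the limma threshold and open points are not. Of the 50 flanking genes 18 were lower, 6 higher and 26 not past it, with SCFD2 the lowest at -1.20. Over all genes 22.9% were lower and 20.9% higher.

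From a list of 18 genes beside the pair, 17 were measured. All 17 are among the 50 flanking genes counted above, so they add no separate result. By limma 8 of them fell and none rose, beside 22.9% of all genes and 36.8% of those above the median expression that were lower. That none rose depends on where the list ends: 6 of the 50 flanking genes were higher, with CRACD (0.18) and AASDH (0.50) just beyond it. The median log2 difference of the list was -0.15, that of all genes 0.00. SCFD2, which encodes a Sec1-family protein, changed by -1.20 (SE 0.04, adjusted p = 9.1e-07), the circadian transcription factor gene CLOCK by -0.86 (SE 0.09, adjusted p = 0.00013) and the deubiquitinase gene USP46 by -0.70 (SE 0.05, adjusted p = 2.6e-05). The genes with the smallest differences were PDCL2 (0.00) and the sarcoglycan gene SGCB (0.01). KDR, the VEGF receptor gene next to KIT, was at 5.11 and 4.97 and did not pass the test (-0.15 ± 0.10, SE).

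Neighbours of the other members were read by the same rule. PDGFB, PDGFC, PDGFRB and KITLG were themselves not above the median expression, unlike the neighbours they are set beside. Over all genes above the median expression the median log2 difference was -0.03. KITLG lay beside the ERK phosphatase gene DUSP6 (-0.79) on one side and TMTC3 (-0.23) on the other. Its 50 expressed neighbours had a median of -0.38, with 39 of them below 0. By limma 32 of these 50 were lower, beside 36.8% of all genes above the median expression. PDGFRB (-0.01) had neighbours with a median of -0.27 and PDGFC (0.19) neighbours with a median of -0.23. PDGFD (3.90) was flanked by DYNC2H1 (-0.02) and DDI1 (-0.09), with a neighbour median of 0.09. PDGFRL lay beside the amino acid transporter gene SLC7A2 (-1.61) and MTUS1 (-0.35), with a median of -0.09 over the 47 expressed neighbours on its chromosome. PDGFA and PDGFB differed about as much as their neighbours did, with neighbour medians of -0.17 over 26 genes and -0.07 over 50.

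**Figure D3:**
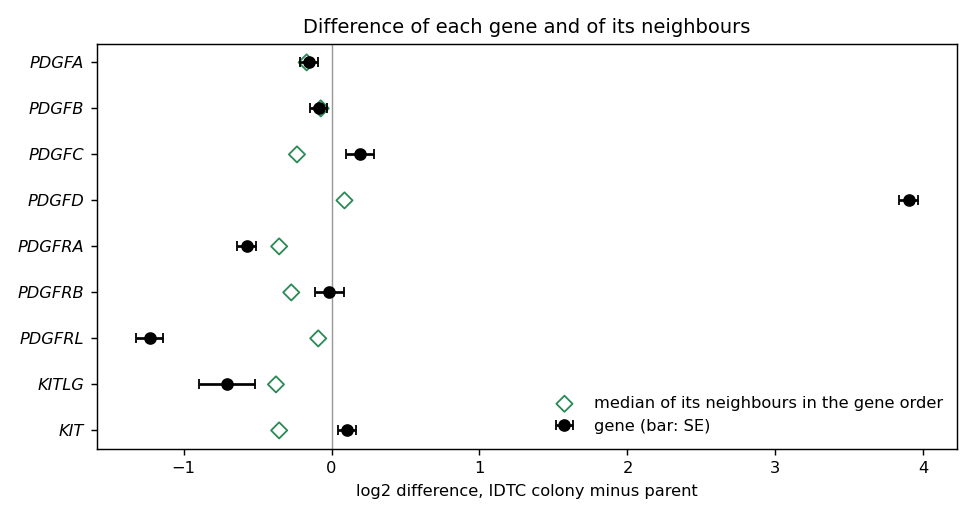
Log2 difference, IDTC colony minus parent, of each of the 9 genes (black, bar: SE, 3 arrays per group) and the median log2 difference of up to 50 expressed neighbours in the gene order (green diamonds). PDGFD at 3.90 and PDGFRL at -1.23 lie far from their neighbours' medians of 0.09 and -0.09, while PDGFA and PDGFB lie on theirs.

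The genes whose values followed PDGFD most closely over the 6 arrays were DKK1, NELL1 and BCAN, by the Euclidean distance between log2 values centred on each gene's mean (0.39, 0.40 and 0.41). DKK1, a secreted Wnt antagonist, was at 3.92, 4.20 and 4.14 on the parent arrays and at 7.77, 8.20 and 8.31 on the colony arrays. NELL1, a secreted glycoprotein gene on the same chromosome as PDGFD, had means of 5.86 ± 0.07 and 9.45 ± 0.06, and BCAN, the proteoglycan brevican, 6.54 ± 0.05 and 10.12 ± 0.01 (SD, n = 3). With 2 groups of 3 arrays the measure mostly ranks genes by the size of their difference.

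Among genes that process PDGF and KIT ligands or present them to receptors, 16 of 17 listed were measured. Of these, 4 rose and 5 fell while 7 were not past the threshold, beside 43.8% of all genes called. In the fit of genes above the median expression alone, 8 of 11 in this list were called, beside 6735 of 9208 in all. The median log2 difference of the list was 0.00. PCSK6, a proprotein convertase, was at 8.43, 8.45 and 8.49 on the parent arrays and at 6.49, 6.37 and 6.25 on the colony arrays, groups that were far apart. Its change was -2.09 (SE 0.07, adjusted p = 5.3e-07). The urokinase receptor gene PLAUR changed by -1.76 (SE 0.04, adjusted p = 1.6e-07), and FURIN, the convertase that cleaves the PDGF-A and PDGF-B precursors, by -1.54 (SE 0.06, adjusted p = 1.2e-06).

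The proteases known to activate PDGF-D were read from the same list. ST14, which encodes matriptase, was at 6.21 in both groups (-0.00 ± 0.06, SE), and the urokinase gene PLAU, named after its values were seen, differed by 0.03 ± 0.06 from a parent mean of 5.94. Neither passed the test. PLAT, the tissue plasminogen activator that frees PDGF-C, rose by 0.72 ± 0.05 from a parent mean of 11.29. NRP1, described as a co-receptor for PDGF-D, was at 6.11, 5.82 and 5.92 on the parent arrays and at 7.09, 7.11 and 7.16 on the colony arrays. It rose by 1.17 ± 0.08 (SE), from a parent mean below every array median, whereas its relative NRP2 differed by 0.01 ± 0.06 and did not pass. HSPG2, the heparan sulfate proteoglycan perlecan, rose by 1.40 ± 0.04. PLAT, NRP1 and HSPG2 were also singled out after their values were seen.

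**Figure D4:**
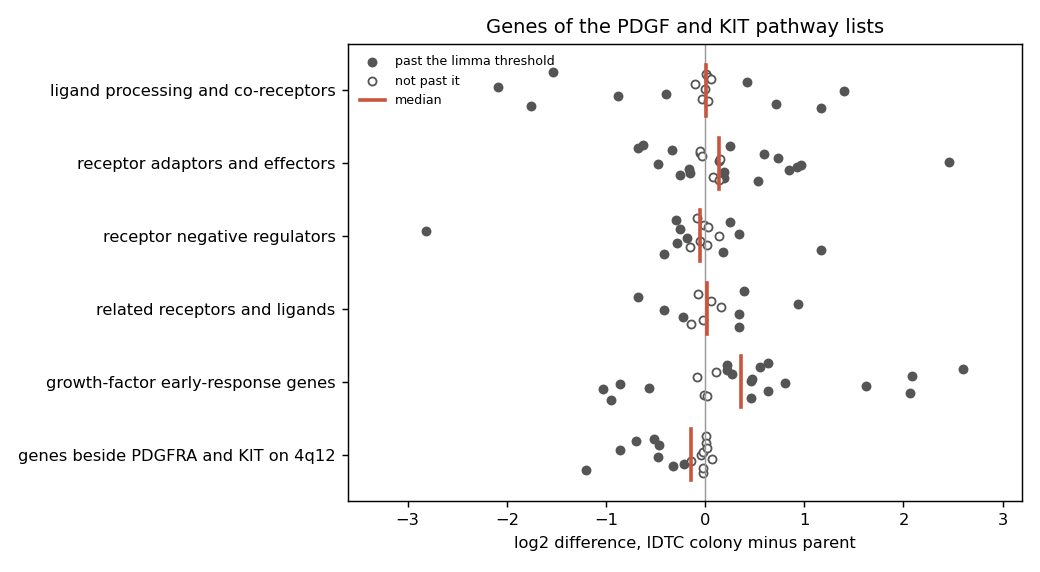
Log2 difference, IDTC colony minus parent (horizontal axis), of the measured genes of 6 lists around the PDGF and KIT pathway, 1 point per gene. Filled points are past the limma threshold, open points are not, and red lines are list medians. The early-response list has the highest median (0.36), and PTPRG (-2.81), CCL2 (2.60) and STAT5A (2.45) lie farthest from 0.

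Receptor adaptors and effectors, the proteins that bind activated PDGF receptors and KIT or act just below them, had 24 of 29 listed genes measured. Of these, 11 rose and 7 fell while 6 were not past the threshold, beside 43.8% of all genes called. In the fit of genes above the median expression alone, 19 of 22 in this list were called, beside 6735 of 9208 in all. The median log2 difference of the list was 0.14 beside 0.00 for all genes. STAT5A, a transcription factor activated by cytokine and growth factor receptors, was at 5.26, 5.78 and 5.75 on the parent arrays and at 7.95, 8.15 and 8.05 on the colony arrays. It rose by 2.45 (SE 0.14, adjusted p = 7.3e-06), from a parent mean below every array median. Its relative STAT5B rose by 0.92 (SE 0.06, adjusted p = 1.2e-05) and the SH2 and SH3 adaptor gene NCK2 by 0.97 (SE 0.05, adjusted p = 4.5e-06). NCK1 (-0.05) and SRC (-0.04), a kinase that binds both PDGF receptors, did not pass. Named after their values were seen, the docking protein genes GAB1 (0.84) and GAB2 (0.73) rose, and PTPN11 (-0.48), the phosphatase SHP2, and AKT1 (-0.34) fell. The size for GAB1 depends on the probe set read, since it was 0.45 with the mean of its probe sets.

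Negative regulators of these receptors split, with 4 of 17 measured genes higher, 6 lower and 7 not past the test. Their median log2 difference was -0.05. Over all genes 43.8% were called. In the fit of genes above the median expression alone, 8 of 10 in this list were called, beside 6735 of 9208 in all. PTPRG, a receptor-type tyrosine phosphatase, was at 11.02, 10.89 and 10.94 on the parent arrays and at 8.21, 8.14 and 8.06 on the colony arrays. It changed by -2.81 (SE 0.06, adjusted p = 1.3e-07), the largest change in the list. SOCS3, an inhibitor of cytokine receptor signalling, rose by 1.17 (SE 0.11, adjusted p = 7.9e-05), from a parent mean of 6.05, below every array median. The adaptor gene GRB10 changed by -0.41 (SE 0.05, adjusted p = 0.00048). CBL (0.34) and CBLB (0.25), ubiquitin ligases that send activated receptors for degradation, were singled out after their values were seen and rose slightly. DOK1 (0.02) and INPP5D (-0.01) did not pass.

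Receptors and ligands of the same superfamily changed in both directions and none by as much as 2-fold. Of 12 measured genes 4 rose and 3 fell while 5 were not past the threshold, beside 43.8% of all genes called, and the median log2 difference was 0.02. Without colony array 1 only 4 were called. FLT1, a VEGF receptor, rose by 0.94 (SE 0.15, adjusted p = 0.0012) between means of 4.87 and 5.81 that both lay below every array median. VEGFA, the main angiogenic ligand, changed by -0.68 (SE 0.05, adjusted p = 1.8e-05) and its relative PGF by -0.41 (SE 0.05, adjusted p = 0.00023). CSF1 (-0.02), the ligand of the KIT-class receptor CSF1R, and FLT4 (0.06) did not pass.

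Growth-factor early-response genes, transcribed within minutes to hours when PDGF or serum reaches resting cells, mostly stood higher in the colonies. Of 22 measured genes 14 rose and 4 fell while 4 were not past the threshold, with a median of 0.36 beside 0.00 for all genes. Over all genes 20.9% were higher and 22.9% lower. In the fit of genes above the median expression alone, 11 of 18 in this list were higher, beside 3093 of 9208 in all. The chemokine gene CCL2, first cloned as a PDGF-induced gene, was at 4.89, 5.32 and 5.15 on the parent arrays and at 7.64, 7.64 and 7.90 on the colony arrays, groups that lay wide apart (adjusted p = 2.7e-06). Its parent mean lay below every array median. FOS rose from 8.85 ± 0.12 to 10.93 ± 0.10 (adjusted p = 1.1e-06) and JUN from 6.77 ± 0.08 to 8.84 (SD, n = 3, adjusted p = 2.0e-07). JUN had 1 identical deposited value on all 3 colony arrays, as had 471 genes in all, among them HSPG2, IER3 and FOSL1, so the spread within their colony groups is not known and their errors may be too small. The 4 that fell were EGR3 (-1.03), IER3 (-0.95), HAS2 (-0.86), a hyaluronan synthase gene, and FOSL1 (-0.57). MYC (0.02) and SRF (-0.01) did not pass, though MYC was 0.13 and past the threshold after quantile normalization. FOS, JUN and CCL2 were known from earlier results of these data, and these genes also respond to stimuli other than PDGF and to cell handling, whose part was not tested.

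PDGF receptors mark fibroblasts and pericytes, and KIT marks mast cells, so markers of these cells were read beside the members. The marker counts that follow stand beside 43.8% of all genes called. None of the 6 keratinocyte, 7 endothelial or 4 mast cell markers measured passed the limma test, with 0, 0 and 1 of them at an unadjusted p under 0.05. Without parent array 1 KRT5 and KRT14 passed as lower, and without colony array 3 the mast cell marker GATA2 as higher. Among 9 fibroblast markers 1 fell, LUM (-0.34), and none rose, with 3 at an unadjusted p under 0.05. The mean level of the list lay between 5.52 and 5.65 over the parent arrays and between 5.61 and 5.64 over the colony arrays. In both groups 6 of the 9 lay below every array median, while LUM (8.11 and 7.76) and COL1A1 (7.37 and 7.58) lay above. Of 9 pericyte and smooth muscle markers 3 rose, namely ACTA2 (2.99, from a parent mean of 5.59, below every array median), CNN1 (0.36) and NOTCH3 (0.23). The mean level of the list went from between 5.52 and 5.65 to between 5.95 and 5.99, mostly through ACTA2. The median log2 difference of the list was 0.01. Of these 9, 5 lay below every array median in both groups, among them RGS5 (5.08 and 5.05), ABCC9 (4.48 and 4.49) and KCNJ8 (5.12 and 5.04). DES (6.48 and 6.47) and NOTCH3 (6.91 and 7.15) lay above every array median in both, and ACTA2 and CNN1 in the colonies. Of 7 leukocyte markers LYZ (-2.35) and FCER1G (-1.44) fell, from parent means of 7.76 and 7.01 to colony means below every array median. The other 5, PTPRC (3.67 and 3.71) among them, lay below every array median in both groups. In bulk RNA, fewer cells carrying a transcript and less of it per cell cannot be told apart.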

How the data were processed

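The 6 samples were grouped by their titles. The deposited values are log2 expression per probe set, as their range shows. Affymetrix Expression Console is the tool named in the submitters' processing notes; its version, background correction and normalization are not stated in any source at hand. Arrays have no read depth, and their number limits the precision. No batch is named, and one that ran with the groups could not be told apart.

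Of 33297 probe sets, 19460 had 1 gene symbol, 1754 several and 12083 none, and 19429 matched RefSeq (GRCh38.p14) by Entrez ID. A gene with several probe sets was read from the one with the highest mean. Groups were compared by limma 3.58.1 in R 4.3.3 (2-sided eBayes on group alone) over 18417 genes, with no filter on dim genes, Benjamini-Hochberg adjustment and a threshold of 0.05. In simulated data of 18417 genes it recovered 84% of changes of 0.5 and 96% of changes of 1 (log2), with 11 calls among 18217 unchanged genes. These rates hold for independent normal noise and few changed genes. In the data 43.8% of genes were called and the spread may be technical, so the rates may not carry over.

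The members, 6 pathway lists, 7 marker lists and tests were chosen with earlier results of these data known. Of 175 list entries 158 were measured, and the rest were not analysed here. Named were the 9 members, the 3 largest changes past the test and the 2 smallest differences of each pathway list, the genes next to a member, and the 3 genes closest to PDGFD. Others, markers included, were named after their values were seen. Protein sequences were not compared. Figures used Python 3.11.15 with matplotlib 3.10.9.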

Additional observations from a re-analysis of the deposited data

How the results depend on the processing

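Alternatives tried were a shift of each array to a shared median, quantile normalization, a test of genes above the median expression alone, averaging the probe sets of a gene, robust and trended eBayes, a replicate block, and leaving out each array. Reading a member from another probe set was not run, since each had 1. Over these settings PDGFD ran from 3.83 to 3.94, PDGFRL from -1.29 to -1.15 and PDGFRA from -0.62 to -0.51. With only genes above the median expression, PDGFD, PDGFRL and PDGFA were the members that entered the fit. With 1 array left out KITLG ran from -0.87 to -0.46, PDGFC from 0.13 to 0.28, KIT from 0.06 to 0.16, PDGFA from -0.18 to -0.10, PDGFB from -0.12 to -0.05 and PDGFRB, which changed sign, from -0.09 to 0.07. Called genes over all genes ran from 7152 to 8354 with 1 array left out. Among related receptors and ligands 7 were called, 4 with only genes above the median expression, where 4 were tested, and 4 to 7 with 1 array left out. Among the list genes whose own values the text gives, NRP2 (0.17 with the mean of its probe sets) and MYC gained a call in 1 setting, while LUM lost its call in 1 setting, CNN1 in 3 and TYRP1 in 4. Deviations from the group means correlated at -0.09, -0.06 and -0.01 for same-numbered arrays and between -0.05 and 0.11 for the others. No shared deviation was seen, but so few arrays cannot tell whether the title numbers 1 to 3 pair the samples. With the replicate block 7564 genes were called, against 8061 without it, and the member differences were the same. PDGFA and PDGFRL alone had both group means above every array median, so the folds of the other 7 members rest in part on values near or below those medians, where signal over background was not tested.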
